A study of Caenorhabditis elegans with 5 samples.

Results

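Pre-mRNA levels were examined at the windows of the C. elegans genome where trimethylation of histone H3 at lysine 9 (H3K9me3) depended on SET-32 and that did not belong to the known targets of germline nuclear RNAi. A window of 1 kb was taken when the deposited table marked it as having lost H3K9me3 in both replicates of the set-32 mutant, when it was in neither list of native nuclear RNAi targets, and when it was not marked misannotated. The 12 windows of the rRNA repeat on chromosome I were left out. Of 816 windows marked in both replicates, 178 were in a target list, 34 were marked misannotated and 12 lay in the rRNA repeat, which left 592 windows of 100270 in the table. The target lists are GRTS (191 windows), whose transcriptional silencing requires the germline nuclear RNAi pathway, and GRH (215 windows), whose H3K9me3 requires it. The choice used H3K9me3 marks and removed windows in either target list, 88 of them GRTS windows. Since GRTS windows were defined by silencing that needs the pathway in which HRDE-1 acts, the hrde-1 levels are not independent of the choice.

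Nascent RNA was measured in synchronized young adult whole animals grown at 19 °C on E. coli OP50, from chromatin immunoprecipitated for elongating RNA polymerase II (C-terminal domain phospho-S2). Each genotype had 1 library. Beside WT (N2) there were hrde-1 (allele tm1200), set-32(ok1457), a double mutant of met-2(n4256) with set-25(ok5021), and a triple mutant that carries these same alleles of the 3 genes. In the plots both are labelled by the names of their mutated genes. The values were RPKM, reads normalised to window length and library size, in which a read that matched several places was split among them. With 1 library per genotype there was no replicate spread and no test was possible: ratios are given with exact Clopper-Pearson intervals (95%) that cover counting error only, and differences between genotypes describe these libraries. In whole animals, fewer cells of a tissue and less RNA per cell cannot be told apart.

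H3K9me3 is a mark of silent chromatin that is laid down by histone methyltransferases (HMTs). In C. elegans, MET-2 contributes the lower methylation states of H3K9 and SET-25 adds the third methyl group, and SET-32 is a further SET domain protein needed for H3K9me3 at nuclear RNAi targets. HRDE-1 is the germline nuclear Argonaute protein, which carries small RNAs to nascent transcripts of its targets and is needed for H3K9me3 and silencing there. H3K9me3 in the worm is concentrated on the arms of the autosomes, which are rich in repeats.

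The libraries differed in depth and in composition. They held between 323817 reads (the triple mutant) and 1096336 reads (WT), so that 20 RPKM stood for 6.48 reads in the triple mutant and for 21.9 in WT. Library codes place WT, the double mutant and hrde-1 in one set and set-32 and the triple mutant in the other. The rRNA repeat took 4.64% to 8.90% of the signal in the first set and 27.8% and 37.3% in the second. For windows in none of the H3K9me3 mark or target lists and whose mean was 5 RPKM or more, the median ratio after adding 1 RPKM was 0.686 in set-32 to WT, 0.553 in the triple mutant to WT and 0.555 in the triple mutant to the double mutant, against 0.996 in the double mutant to WT, 0.917 in hrde-1 to WT and 0.821 in the triple mutant to set-32. Comparisons across the sets are therefore given as deposited and again rescaled so that this median is 1, and there a difference of genotype cannot be told apart from one of library set.

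The members carried high H3K9me3 in WT. The tier of WT H3K9me3 given to each window is not defined in the sources used here, and tier 1 was read as the highest from the study's own H3K9me3 values. The members comprised 53 of the 100 kept windows of tier 1, 333 of the 891 of tier 2, 172 of the 4040 of tier 3 and 34 of the 20582 of tier 4, and none lay in a lower tier. Since a mark can be lost only where it was present, the crowding in the upper tiers is tied to the choice. Nearly all members also depended on MET-2 and SET-25: 549 (92.7%) were marked in both replicates of the double mutant, 25 in 1 replicate and 18 in neither. In the triple mutant, 565 (95.4%) were marked in both replicates. That mutant also lacks SET-32, by whose loss the members were chosen, so its marks say nothing about the other HMTs. Conversely, the 549 shared windows made up 22.7% of the 2423 windows outside the target lists that were marked in both replicates of the double mutant. The most similar other group was the 1391 windows that depended on MET-2 and SET-25 but carried no SET-32 mark in either replicate. Of these, 1019 (73.3%) were in tier 3 and 255 (18.3%) in tier 2, against 29.1% and 56.2% of the members.

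The members lay on chromosome arms and above all on the right arm of chromosome V. Chromosome V held 312 members (52.7%) with 20.8% of the kept windows, followed by I (77), II (73), IV (52), X (45) and III (33). When each chromosome was cut into 10 equal segments, the ninth segment of chromosome V alone held 213 members (36.0%), the second segment of chromosome II 43 and the first segment of the X 37. The 3 outermost segments of either end held 504 of the 547 autosomal members (92.1%). Those segments make up most of each chromosome, and the share of kept windows in them was not counted. The windows dependent on MET-2 and SET-25 without a SET-32 mark were spread in a like way, with 27.2% in the ninth segment of chromosome V and 10.5% in the second segment of chromosome II, against 7.26% of the members in the latter.

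**Figure D1:**
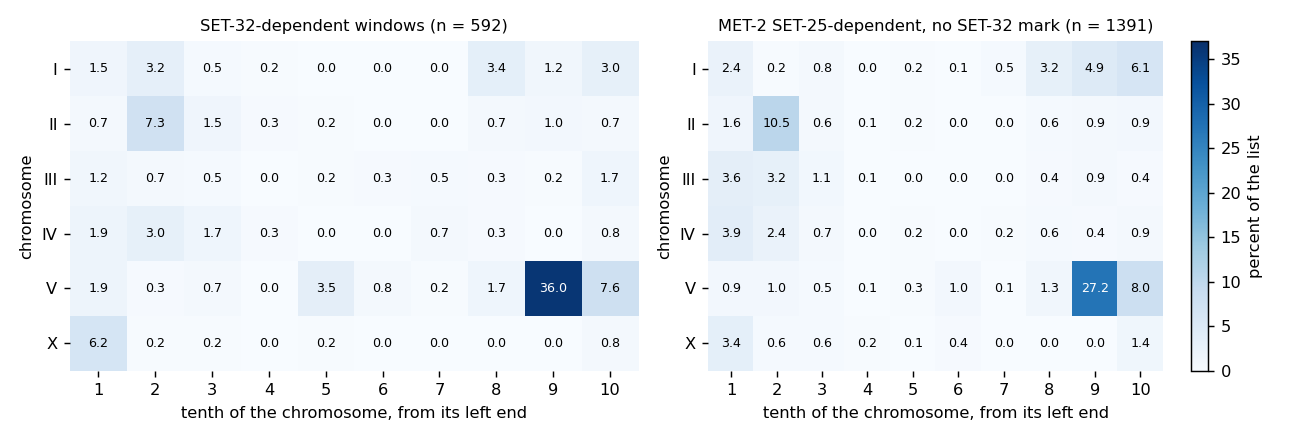
Share of each list (percent, colour and printed value) in each of 10 equal segments of the 6 chromosomes, for the 592 SET-32-dependent windows (left) and the 1391 windows dependent on MET-2 and SET-25 without a SET-32 mark (right). The ninth segment of chromosome V holds the largest share of both lists, 36.0% and 27.2%.

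Members formed short clusters. They fell into 378 runs of adjacent windows. Of these runs, 258 were a single window, 82 were 2 kb and 17 were 4 kb or longer, up to 15 kb. The H3K9me3 dependence on MET-2 and SET-25 reached beyond the members: 64.8% of kept windows 1 kb from a member and outside the targets were marked in both replicates of the double mutant, 43.7% at 2 kb, 19.7% at 5 kb and 4.81% at 10 kb. The pre-mRNA level was higher inside the members than beside them, with a median of 5.47 RPKM in WT at members and 2.74 RPKM at 1 kb, at 2 kb and at 5 kb from them. In hrde-1 the corresponding medians were 7.37, 2.95, 2.64 and 2.36 RPKM. Among windows more than 2 kb from the targets the contrast was smaller. There WT had 3.675 RPKM at members and 2.61 at 1 kb from them, and hrde-1 had 3.50 and 2.21. Members were also close to the RNAi targets, although target windows themselves were left out: 132 (22.3%) lay within 2 kb of a GRTS or GRH window, against 2.3% of the MET-2 SET-25-dependent windows without a SET-32 mark and 0.607% of all kept windows outside the targets. Many held repeated sequence. In 319 members (53.9%) at least 1 library had a value that was not a whole number of reads, the trace of reads shared between places, against 40.6% of the MET-2 SET-25-dependent windows without a SET-32 mark and 19.8% of all kept windows. The flanks were not split by shared reads, so their contrast with members was not separated from where shared reads were counted. The other 273 members, which include those at 0, had a WT median of 0.910 RPKM.

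These H3K9me3-rich windows were transcribed at a low but detectable level. The median over the 592 members was 5.47 RPKM in WT, 5.39 in set-32, 4.27 in the double mutant, 3.09 in the triple mutant, with 7.37 in hrde-1, while the medians over all 99752 kept windows were 1.82, 1.80, 2.98, 0.340 and 1.47 RPKM in the same order. Thus the median over all members stood above the genome-wide median in every library. As deposited it was highest in hrde-1 and lowest in the triple mutant. The 273 members without shared reads did not stand above it, with medians of 0.910, 1.80, 1.49, 0 and 1.47 RPKM in the same order. A value of 0 counted as whole, so this class includes the 76 members at 0 in all libraries. Its low medians follow in part from that sorting, and the kept windows were not split in this way. The 319 members with shared reads had 9.12, 8.13, 6.72, 4.89 and 12.6 RPKM, and the place of origin of a shared read is not known. Rescaled to WT as above, the members' medians were 5.47 RPKM in WT, 7.86 in set-32, 4.28 in the double mutant, 5.59 in the triple mutant and 8.04 for hrde-1, so that the double mutant was then the lowest. The interquartile ranges, 0.910 to 17.2 RPKM in WT and 0 to 9.26 RPKM in the triple mutant, overlapped widely. Reads were present at 482 members (81.4%) in WT, at 449 in set-32 and in the double mutant, at 448 in hrde-1 and at 377 in the triple mutant. All 5 libraries had a value above 0 at 332 members and none did at 76. A value of 0 allows up to 2.74 RPKM in WT and 9.26 RPKM in the triple mutant (3 reads), so that members without reads in the triple mutant cannot be told from members at the WT median. A mean of 20 RPKM or more over the 5 libraries was reached by 17.1% of members and 10.2% of kept windows.

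Level varied with position. On the ninth segment of chromosome V, where 213 members lie, the medians were 0.910 RPKM in WT, 0.750 in the double mutant and 0 in set-32, hrde-1 and the triple mutant. Reads were found there at 121 of the 213 members in WT. All kept windows of that segment had a WT median of 0.220 RPKM, and its MET-2 SET-25-dependent windows without a SET-32 mark had 0. Off chromosome V the 280 members had medians of 10.9 RPKM in WT, 9.65 in set-32, 7.46 in the double mutant, 6.18 in the triple mutant, with 14.5 in hrde-1, and 274 of them had reads in WT. By chromosome, the WT median was 16.4 RPKM on I, 12.6 on II, 10.2 on IV, 8.24 on III, 7.30 on the X and 1.82 on V. All kept windows had WT medians of 4.74, 1.82, 1.82, 4.56, 0.910 and 0.910 RPKM on these chromosomes in the same order. By tier the members' WT median was 9.46, 3.65, 6.77 and 9.17 RPKM in tiers 1 to 4, with no order from the most to the least methylated.

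**Figure D2:**
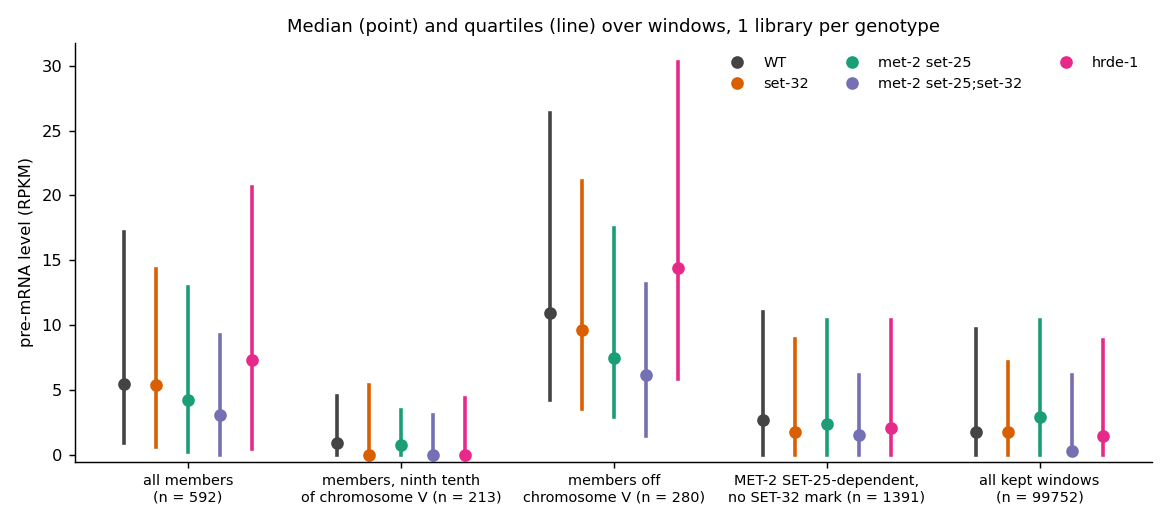
Pre-mRNA level (RPKM, linear axis) in the 5 libraries: points are medians over windows and lines join the quartiles, for all members, those in the ninth segment of chromosome V, those off chromosome V, the MET-2 SET-25-dependent windows without a SET-32 mark and all kept windows. Members off chromosome V have the highest medians, 6.18 to 14.5 RPKM, and those in the ninth segment of chromosome V lie at or below 0.910 RPKM.

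The highest members were named by their mean over the 5 libraries, with positions in build ce6 counted from 1. At chromosome II from 1148001 to 1151000 (3 windows, tiers 3 and 4, each marked in the double mutant too) the mean level was 305 RPKM in WT, 363 in set-32, 280 in the double mutant, 188 in the triple mutant, with 297 in hrde-1. These windows held 183 to 1002 reads, all of them whole numbers, and WT, set-32, the double mutant and hrde-1 lay within 280 to 363 RPKM. The set-32 to WT ratio was 1.19 (1.07 to 1.32), or 1.74 rescaled, and that of the double mutant to WT 0.919 (0.828 to 1.02). At chromosome V from 1202001 to 1205000 (3 windows, tiers 1 and 2) the level was 218 RPKM in WT, 104 in set-32, 119 in the double mutant, 93.1 in the triple mutant, with 150 in hrde-1, so that WT was above every mutant. At V from 17088001 to 17089000 (tier 2) it was 186, 240, 161, 151 and 225 RPKM in the same order of genotypes. A single window, V from 20464001 to 20465000 (tier 2), stood at 56.1 to 80.1 RPKM in the other 4 libraries and at 168 RPKM in the triple mutant, 3.0 times (2.04 to 4.39) the WT level. The remaining windows named by this rule, I from 1836001 to 1837000 and from 13964001 to 13965000, held 52.5 to 134 and 98.8 to 152 RPKM across the libraries.

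The first question was whether loss of SET-32, and with it of H3K9me3 at these windows, went with a change in transcription. Over all members the set-32 signal summed to 0.915 of the WT signal (0.883 to 0.948), and 0.751 over all kept windows. The median ratio after adding 1 RPKM was 1.00, against 0.987 over all kept windows. A window was called higher or lower by size alone, when the ratio after adding 1 RPKM was at least 2 and the larger value at least 20 RPKM. Since more members than kept windows reached such levels, more of them could be called. By this rule 14 members (2.36%) were higher in set-32, where 0.390% of kept windows were, and 32 (5.41%) were lower, where 4.27% were. After rescaling, which moved the summed ratio to 1.33 (1.29 to 1.38), 46 members were higher and 14 lower, against 1.71% and 1.54% of kept windows. The direction of the summed difference thus depended on the scaling, while under both scalings the shares of members called higher and called lower were both above those of all windows. At equal tier and after rescaling, 8.41% of tier 2 members and 4.37% of the other tier 2 windows outside the targets were called higher, and in tier 1 the shares were 11.3% and 15.4%.

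Loss of SET-32 in animals that already lacked MET-2 and SET-25 was compared through the triple mutant and the double mutant. The summed ratio was 0.749 (0.707 to 0.793), with 0.659 over all kept windows, and the median ratio 0.864, with 0.839 over all kept windows. Called higher were 7 members (1.18%; kept windows 0.432%) and called lower 25 (4.22%; kept windows 6.95%). After rescaling the summed ratio was 1.35 (1.27 to 1.43), and 39 members were called higher and 6 lower, against 3.33% and 2.76% of kept windows. This comparison shares no library with set-32 to WT. Over the 326 members whose mean was 5 RPKM or more, the log2 ratios of both comparisons had a Pearson r of 0.239 and a Spearman rho of 0.226, and over the 32860 windows in no list r was 0.203. After rescaling, 10 members were called higher in both comparisons, which is 21.7% of those called in set-32 to WT and 25.6% of those called in the triple mutant to the double mutant. The corresponding shares were 40.7% and 33.8% for MET-2 SET-25-dependent windows without a SET-32 mark and 33.8% and 16.2% for windows in no list. Lower in both were 2 members.

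Among the named windows, 2 pairs of adjacent windows differed in a like way in both backgrounds (pairs chosen after their values were seen). At IV from 2897001 to 2899000 (tiers 2 and 3, 119 kb from the nearest target), the level was 50.4 RPKM in WT, 51.1 in the double mutant and 117 in hrde-1, but 9.89 in set-32 and 3.86 in the triple mutant. Both libraries without SET-32 were below the 3 with it, at 0.196 (0.0947 to 0.363) of WT and 0.0755 (0.00722 to 0.229) of the double mutant, on 11 and 2 reads. Rescaling gave 0.286 and 0.136. At V from 795001 to 797000 (tier 1, 475 kb from the nearest target) the order was the opposite: 8.21 RPKM in WT, 2.99 in the double mutant and 14.0 in hrde-1, but 35.0 in set-32 and 23.2 in the triple mutant. Set-32 was 4.27 times (2.38 to 7.93) WT, and the triple mutant 7.76 times (2.47 to 32.1) the double mutant. In both pairs the libraries without SET-32 were also the libraries of the second set. V from 1698001 to 1699000 (tier 2) held 21.9 RPKM in WT, 119 in set-32, 7.46 in the double mutant, 53.1 in hrde-1 and 0 in the triple mutant, where 66 reads in set-32 faced 0 reads, as deposited at least 12.8-fold lower than in set-32 with 3 reads as the limit. V from 18311001 to 18312000 (tier 3) held 2.74 RPKM in WT and 23.4 in set-32, with 2.98 to 6.63 RPKM in the other libraries. With 1 read in the triple mutant and 2 in the double mutant, the ratio between them had an interval of 0.0175 to 19.9, so that no difference in the second background was detectable at this depth.

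The second question, within library sets, was the loss of MET-2 and SET-25. In the double mutant the members' signal summed to 0.745 of WT (0.719 to 0.772), while all kept windows summed to 0.987 (0.984 to 0.990). The median ratio was 0.858, against 1.00, and 345 members were below WT and 158 above. Lower by the size rule were 41 members (6.93%; kept windows 1.26%) and higher 4 (0.676%; kept windows 1.19%). These libraries needed almost no rescaling, which left 40 and 4. In the second set, the triple mutant to set-32, the summed ratio was 0.610 (0.575 to 0.645), against 0.867 over kept windows, and the median 0.825 against 1.00. Lower were 62 members (10.5%; kept windows 2.51%) and higher 4 (0.676%; kept windows 0.744%). After rescaling the summed ratio was 0.743 (0.701 to 0.786), with 48 members lower and 11 higher, against 1.67% and 1.73% of kept windows. The summed pre-mRNA of the members was thus lower without MET-2 and SET-25 in both pairs of libraries and under both scalings. These pairs share no library. After rescaling, 12 members were called lower in both, which is 30.0% of those called in the double mutant to WT and 25% of those called in the triple mutant to set-32, and none was higher in both. These shares were 14.3% and 12.5% for MET-2 SET-25-dependent windows without a SET-32 mark and 13.5% and 9.94% for windows in no list. The 12 members were not independent observations. Among them, V from 17138001, 17139001, 17140001 and 17144001 lay in the same run. II from 1938001, 1942001, 1946001 and 1947001 lay in the same stretch of 27 kb. The log2 ratios of the same 326 members had a Pearson r of 0.286 and a Spearman rho of 0.289, and those of windows in no list an r of 0.181.

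The lower level was seen in every tier that held members. In the double mutant the summed ratio to WT was 0.568 (0.508 to 0.633) for tier 1 members, 0.666 (0.631 to 0.702) for tier 2, 0.929 (0.873 to 0.988) for tier 3 and 0.823 (0.737 to 0.919) for tier 4. Windows of the same tier that were neither members nor targets had 0.842 (0.745 to 0.95) in tier 1 (26 windows), 0.856 (0.817 to 0.898) in tier 2 (481 windows), 0.939 (0.923 to 0.957) in tier 3 and 0.996 (0.988 to 1.01) in tier 4. The intervals of members and other windows did not overlap in tiers 1, 2 and 4, and in tier 3 they did. These intervals leave out the spread between windows, and some sums rest on few places. In tier 1, V from 1202001 and V from 1203001 held 172 and 194 RPKM in WT, where the 53 members had a mean of 21.7. Most of the longest run, V from 17133001 to 17148000, was also in tier 1. Tier 2 includes members of a stretch at II from 1931001 to 1958000, described below. Whether members differ from other windows was not tested. Of the tier 2 windows, 8.71% of members and 2.08% of the others were called lower. In the triple mutant to set-32 the tier 2 ratios were 0.578 (0.532 to 0.629) for members and 0.863 (0.805 to 0.925) for the others, while in tier 1 they were 0.647 (0.546 to 0.763) and 0.706 (0.603 to 0.825), with intervals that overlapped. In tier 3 they were 0.660 (0.596 to 0.730) and 0.752 (0.731 to 0.773), and in tier 4 0.560 (0.457 to 0.683) and 0.807 (0.796 to 0.817), so the ratio of members followed no order of tiers in this pair. The MET-2 SET-25-dependent windows without a SET-32 mark summed to 0.901 (0.879 to 0.924) in the double mutant to WT, and 2.52% of them were called lower. Restricted to the 273 members without shared reads the summed ratio was 0.809 (0.764 to 0.857), although their median ratio was 1.00. That median includes the members at 0 in both libraries, whose ratio after adding 1 RPKM is 1.

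**Figure D3:**
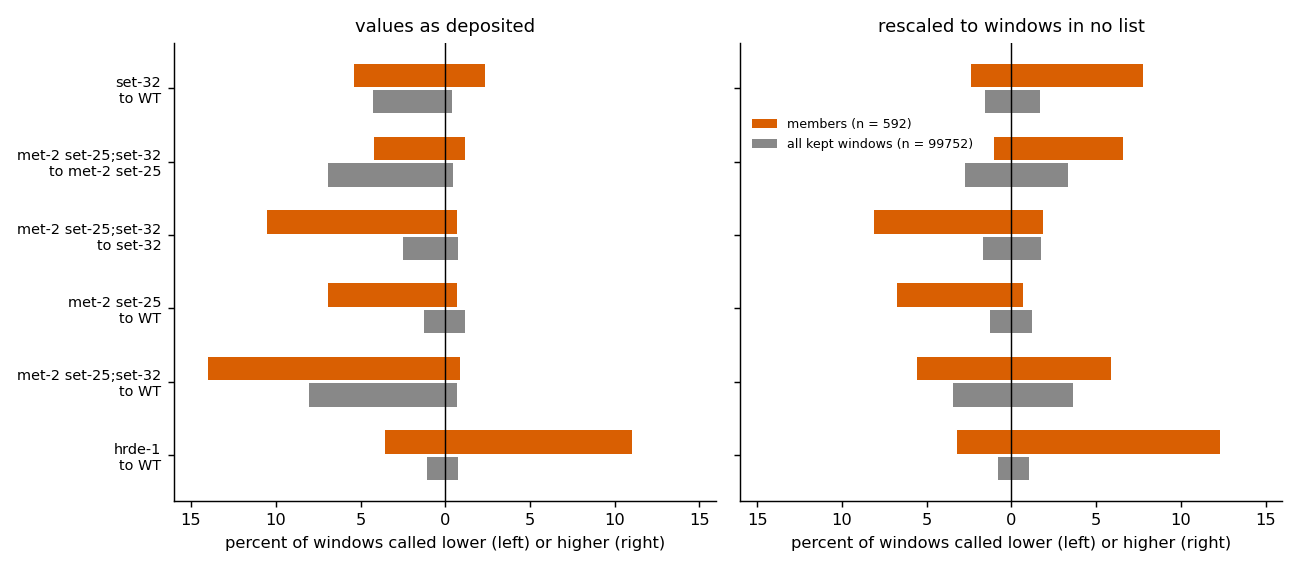
Percent of members (orange, of 592) and of all kept windows (grey, of 99752) called lower (left of 0) or higher (right of 0) in each of the 6 comparisons, as deposited (left panel) and rescaled to windows in no list (right panel). Members called lower exceed those called higher in the double mutant to WT and in the triple mutant to set-32 in both panels, and in hrde-1 to WT the members called higher reach 11% as deposited.

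Of the 41 members called lower in the double mutant, 15 were on chromosome V and 13 on chromosome II, and 32 lay more than 20 kb from a target. Nearly all of those on chromosome II lay in the stretch given next, so they are not independent observations. At II from 1931001 to 1958000 (27 windows of tiers 2 and 3, 17 of them members, 77 kb from the nearest target; chosen after its values were seen), the mean level was 31.9 RPKM in WT, 14.4 in set-32, 7 in the double mutant, 5.46 in the triple mutant, with 48.8 in hrde-1. All 3 HMT mutants were below WT and hrde-1 was above it. The ratio to WT was 0.220 (0.181 to 0.265) in the double mutant and 0.453 (0.389 to 0.525) in set-32, and the triple mutant had 0.378 (0.272 to 0.522) of set-32. Within it, II from 1932001 to 1934000 held 105 reads in WT and 9 in the double mutant, at 47.9 and 6.71 RPKM. II from 1955001 to 1956000 held 24 reads in WT, 18 in hrde-1, 2 in set-32, 1 in the double mutant and 0 in the triple mutant. At V from 17642001 to 17649000, a 7 kb run of tier 2, the level was 24.4 RPKM in WT, 18.3 in hrde-1, 9.37 in set-32, 9.91 in the double mutant and 4.85 in the triple mutant, so that the 3 HMT mutants were below the other 2 libraries. The 10 kb run at I from 2051001 to 2061000 had 43.8 RPKM in WT, 32 in set-32, 26.9 in the double mutant, 18.5 in the triple mutant, with 34.9 in hrde-1, and the ratio of the double mutant to WT was 0.615 (0.514 to 0.730). Few members went the other way. The 4 members called higher in the double mutant, at II from 2514001, V from 10868001, V from 18297001 and V from 20501001, stood at 20.9 to 43.8 RPKM there and at 5.47 to 18.2 RPKM in WT.

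Against WT, the triple mutant summed to 0.558 (0.529 to 0.588) at the members and to 0.651 over all kept windows, and the median ratio was 0.648, against 0.885 over all kept windows. Called lower were 83 members (14.0%; kept windows 8.06%) and higher 5 (0.845%; kept windows 0.669%). After rescaling the summed ratio was 1.01 (0.957 to 1.06), with 35 members higher and 33 lower, against 3.66% and 3.45% of kept windows. Over all kept windows the rescaled ratio was 1.18, so that the members were below the kept windows under both scalings. Among single windows, II from 14319001 to 14320000 (tier 3) held 29.6 RPKM in WT, 48.5 in set-32, 29.1 in the double mutant, 19.2 in hrde-1 and 0 in the triple mutant, where 0 reads allow up to 9.26 RPKM as deposited. III from 9239001 to 9240000 (tier 4) likewise held 32 reads in WT and 0 in the triple mutant. In the opposite direction, X from 124001 to 125000 (tier 2) had 2.28 RPKM in WT and 20.1 RPKM in the triple mutant, on 2 and 6 reads, and its interval ran from 1.82 to 103 times.

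The 18 members with no mark in either replicate of the double mutant were looked at apart. Of them, 2 were marked in both replicates of the triple mutant, 11 in 1 replicate and 5 in neither. Their medians were 5.25 RPKM in WT, 4.94 in set-32, 4.48 in the double mutant, 1.54 in the triple mutant, with 8.84 in hrde-1. The summed ratios were 0.829 (0.641 to 1.07) in set-32 to WT and 0.834 (0.651 to 1.05) in the double mutant to WT, both with intervals that hold 1, and 0.370 (0.229 to 0.569) in the triple mutant to WT, or 0.670 (0.414 to 1.03) after rescaling. None of them was called in the double mutant to WT.

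The third comparison, hrde-1 to WT, asked what happened at these windows without the nuclear Argonaute. Both target lists come from earlier work on hrde-1, and the members were windows outside them. The members' signal summed to 1.24 times WT (1.20 to 1.27), against 0.953 over all kept windows, while the median ratio was 1.00 in both. Higher in hrde-1 were 65 members (11%; kept windows 0.749%) and lower 21 (3.55%; kept windows 1.10%). After rescaling 73 were higher and 19 lower, against 1.07% and 0.799% of kept windows. Members were thus called more often than kept windows in both directions.

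Most of the higher windows lay beside the targets. Of the 65, 39 were within 2 kb of a GRTS or GRH window. At 1 kb from a target the median ratio of the 88 members was 2.03 and 36.4% were called higher, at 2 kb the 44 members had 1.51 and 15.9%, and beyond 100 kb the 260 members had 1.00 and 5%. Kept windows outside the targets also fell with distance, from 1.59 and 21.2% at 1 kb to 1.00 and 0.453% beyond 100 kb. In every class of distance a larger share of members than of these kept windows was called higher. From 6 to 20 kb the shares were 12.2% and 0.886%, and from 21 to 100 kb 1.80% and 0.476%. The MET-2 SET-25-dependent windows without a SET-32 mark had 26.3% called higher at 1 kb (19 windows) and 7.69% at 2 kb (13). From 3 to 5 kb they had 18.8% (32 windows), above the 12.5% of the 40 members there. Further out they had 0% from 6 to 20 kb, 1.42% from 21 to 100 kb and 0.827% beyond 100 kb. More than 2 kb from a target, the members' summed ratio was 1.03 (0.997 to 1.07), with 26 higher and 20 lower of 460, and more than 20 kb away it was 0.960 (0.920 to 1.00), with 15 higher and 19 lower of 371. Among tier 2 windows, 12.3% of members and 3.53% of the other windows outside the targets were called higher, and in tier 3 the shares were 9.88% and 1.59%. Distance to the targets was not matched in this comparison.

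**Figure D4:**
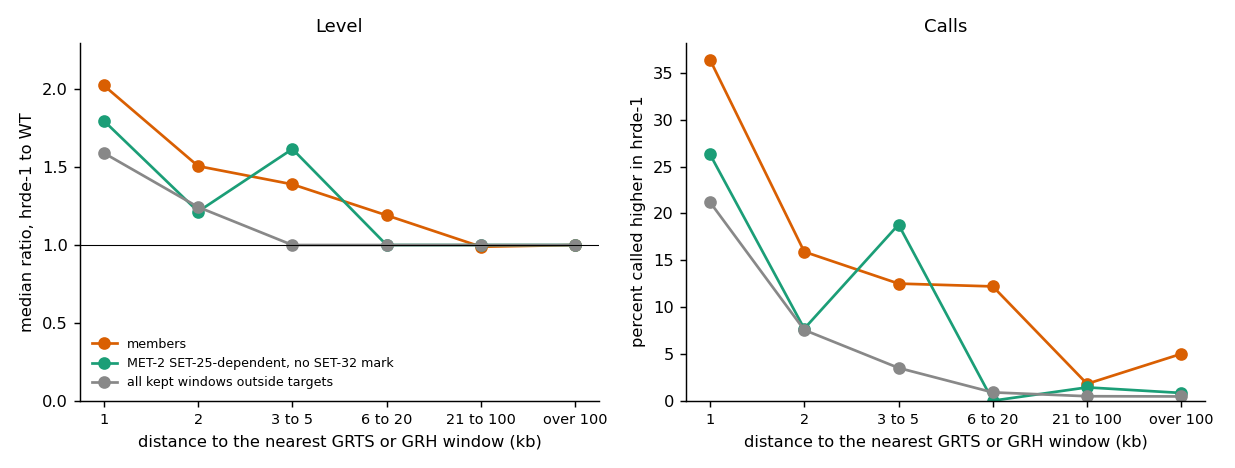
hrde-1 to WT by distance to the nearest GRTS or GRH window (kb, in classes): median ratio after adding 1 RPKM (left) and percent of windows called higher (right), for members, MET-2 SET-25-dependent windows without a SET-32 mark and all kept windows outside the targets. At 1 kb the members stand at a ratio of 2.03 and 36.4% called higher, and from 21 to 100 kb at 0.989 and 1.80%.

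Among the higher windows, those with the largest ratios were low in WT. At V from 20299001 to 20302000 (3 windows of tiers 1 and 2, 1 kb from a target, all with shared reads) the level was 3.50 RPKM in WT, 3.30 in set-32, 1.24 in the double mutant, 0 in the triple mutant, with 66.6 in hrde-1. The hrde-1 library alone was high, at 19.0 times (10.2 to 36.3) WT on 136 and 12 reads. At II from 14982001 to 14983000 (tier 3, 1 kb from a target) hrde-1 held 61.9 RPKM on 42 reads, set-32 12.6 on 7, the triple mutant 6.18 on 2, the double mutant 1.49 on 1 and WT 0.910 on 1. IV from 16316001 to 16317000 (tier 2, 1 kb from a target) held 14 reads in hrde-1 and 0 or 1 in each other library. Part of this group is repeated sequence. On chromosome V, the windows from 8837001 and from 8879001 (chosen after their values were seen) had 34.5 and 32.5 RPKM in hrde-1 and the same 2.96, 4.70 and 0.620 RPKM in set-32, the double mutant and the triple mutant, the mark of reads shared between copies, so they are not separate observations. Not all such windows were next to a target. IV from 2897001 to 2899000, described above, had 2.32 times (1.80 to 2.98) the WT level in hrde-1, and I from 14730001 to 14731000 (tier 3, 643 kb from a target) had 127 RPKM in hrde-1, 38.3 in WT, 28.8 in set-32, 49.3 in the double mutant and 9.26 in the triple mutant.

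Of the 21 windows lower in hrde-1, 19 lay more than 20 kb from any target, and 14 lay in 2 stretches. The longest run of members, V from 17133001 to 17148000 (15 windows of tiers 1 to 3, 207 kb from a target, all marked in the double mutant), had 19.8 RPKM in WT, 23.5 in set-32, 8.91 in the double mutant, 6.45 in the triple mutant, with 1.25 in hrde-1. Set-32 stood at 1.18 (0.987 to 1.42) of WT as deposited and at 1.72 rescaled, the double mutant at 0.449 (0.349 to 0.566) of WT, and hrde-1 at 0.0627 (0.0339 to 0.112), on 13 reads against 326. The signal came from its first 13 windows, and the last 2 held at most 0.910 RPKM in any library. The 7 windows from 17138001 to 17145000, chosen after their values were seen, held whole reads only: 247 in WT, 149 in set-32, 65 in the double mutant, 21 in the triple mutant, with 7 in hrde-1. At the left end of the X, the 8 kb run from 148001 to 156000 (tiers 2 and 3, all windows with shared reads, 59 kb from a target) had 24.6 RPKM in WT, 19.9 in set-32, 14.2 in the double mutant, 11 in the triple mutant, with 4.75 in hrde-1, a hrde-1 to WT ratio of 0.193 (0.124 to 0.293). The low hrde-1 level there was not limited to members: over the 28 windows from 148001 to 176000, of tiers 2 to 7 and with 12 members, the ratio was 0.222 (0.179 to 0.276). By chromosome, 11 of the 21 were on V and 8 on the X. The other long runs held fewer reads. V from 19274001 to 19281000 held 3 to 9 reads in each library. X from 226001 to 233000 held 5.36 RPKM in WT, 8.44 in set-32, 4.88 in the double mutant, 3.01 in the triple mutant, with 7.78 in hrde-1, and as deposited the interval of every ratio to WT held 1, while the set-32 to WT ratio was 2.296 rescaled.

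**Figure D5:**
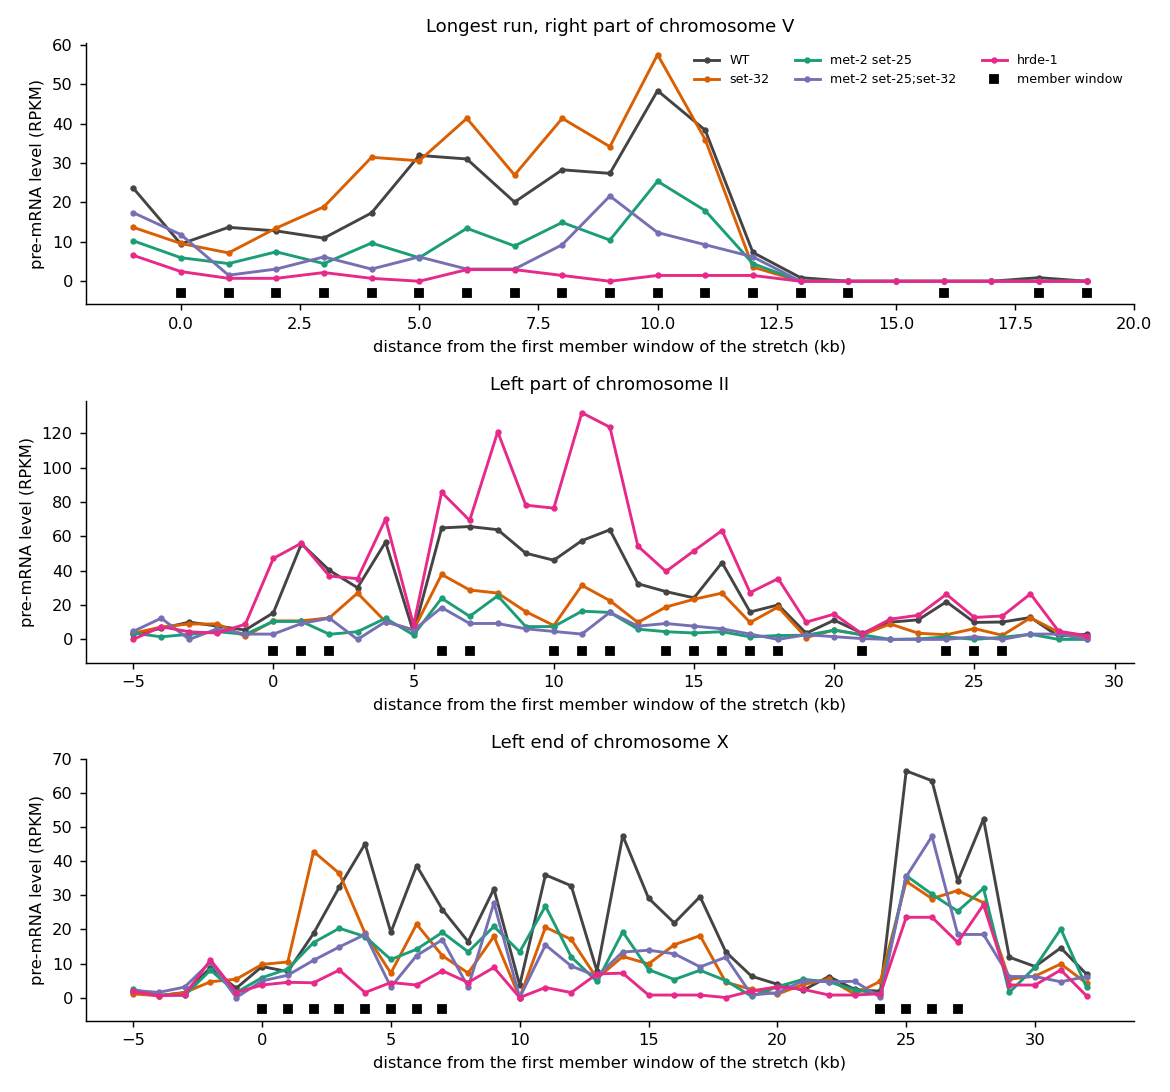
Pre-mRNA level (RPKM, linear axes that differ between panels) of single 1 kb windows in the 5 libraries along 3 stretches, against distance from the first member window (kb). Black squares mark members. The hrde-1 line is near 0 along the longest run on chromosome V (top) and lowest at most windows on the X (bottom), while on chromosome II (middle) it is highest at most windows and the double mutant and the triple mutant are low.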

How the data were processed

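Pre-mRNA was sequenced in 5 libraries, 1 per genotype. The authors deposited 1 table of 1 kb windows in C. elegans build ce6 with RPKM values, made from reads aligned with Bowtie 0.12.7, reads with several matches being shared among them. The deposited score columns hold the target lists, the WT H3K9me3 tier and the H3K9me3 marks of each mutant. The codes of the mutant columns were matched to genotypes by their window counts. From the values, 78.6% to 80.1% of those above 0 were whole multiples of 1 read (tolerance 0.02), which gave reads per library. Genes and sequences were not assigned, since no ce6 annotation was used here.

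Ratios were taken after adding 1 RPKM, and summed ratios have exact binomial intervals on recovered reads, which leave out all error but counting (PCR copies of a molecule count as separate reads). Of the windows, 506 marked misannotated and 12 of the rRNA repeat were left out. Named windows were the 10 members of highest mean, up to 5 called members of largest and 5 of smallest ratio per comparison, and the 5 longest runs, with adjacent ones merged. The members and lists were chosen with earlier results of these data known. Alternatives were pseudocounts of 0.1 and 5 RPKM, a minimum of 10 RPKM, a ratio of 4, a mean of 5 RPKM, 2 rescalings, marks in either replicate, distance from targets and whole reads. Python 3.11.15, numpy 2.4.6, pandas 2.3.3, scipy 1.17.1 and matplotlib 3.10.9 were used, and the scripts were tested on simulated data.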

Additional observations from a re-analysis of the deposited data

Results flagged for a closer look

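At 3 members, the same loss was called in opposite directions in the presence and absence of the other HMTs after rescaling. With 1 library per genotype the difference was not tested. For loss of SET-32, 1 of 46 members called higher in set-32 to WT was lower in the other comparison, and 2 of 14 called lower were higher. Among windows in no list these were 41 of 1498 and 56 of 1474. For loss of MET-2 and SET-25, 1 of 40 members called lower in the double mutant to WT was higher in the other comparison. Among windows in no list it was 29 of 1103. At II from 14319001 to 14320000, loss of SET-32 went with 27 reads against 32 in WT (48.5 and 29.6 RPKM) but with 0 reads against 19 where MET-2 and SET-25 were missing (0 and 29.1 RPKM), a difference of 6.14 between the rescaled log2 ratios. That value rests on the 1 RPKM added to the 0. At II from 1933001 to 1934000, set-32 had 7 reads to 44 in WT (12.6 and 40.1 RPKM) and the triple mutant 4 to 2 in the double mutant (12.4 and 2.98 RPKM), a difference of -3.63. At I from 13955001 to 13956000, 52 reads in WT, 4 in set-32, 9 in the double mutant and 6 in the triple mutant gave a difference of -3.33 for loss of SET-32 and of -3.27 for loss of MET-2 and SET-25, which rest on the same 4 libraries.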

How the results depend on the processing

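No paired analysis was possible because each genotype had 1 library. Rescaling turned the summed ratio above 1 in set-32 to WT (1.33) and the triple mutant to the double mutant (1.35), brought it to 1.01 (0.957 to 1.06), an interval that holds 1, in the triple mutant to WT, and moved it in the triple mutant to set-32 (0.743) and hrde-1 to WT (1.35). These shifts follow from the factors themselves, and what set the factors was not tested. Rescaled median ratios were 1.08 in set-32 to WT, 0.970 in the triple mutant to set-32 and 1.00 in the triple mutant to WT. By the total without rRNA, the last 2 were 0.928 and 0.908. Rescaled calls were 46 higher and 14 lower in set-32 to WT, 39 and 6 in the triple mutant to the double mutant, 35 and 33 in the triple mutant to WT, and 11 higher in the triple mutant to set-32. Among members whose mean was 5 RPKM or more, median ratios were 0.933 in set-32 to WT, 0.741 in the triple mutant to the double mutant, 0.595 in the triple mutant to set-32, 0.728 in the double mutant to WT, 0.535 in the triple mutant to WT and 1.20 in hrde-1 to WT. With 5 RPKM added, the triple mutant stood at 0.896 of set-32 and 0.843 of WT. Members with whole reads only had a median ratio of 1 in the double mutant to WT, the triple mutant to set-32 and the triple mutant to WT, and windows marked in either replicate had 1, 1 and 0.820. The class of whole reads holds the members at 0 in every library, whose ratio is 1 by construction. With a minimum of 10 RPKM, 25 members were higher in set-32 to WT, 13 higher and 55 lower in the triple mutant to the double mutant, 11 higher in the triple mutant to set-32, 14 higher in the double mutant to WT, 10 higher in the triple mutant to WT and 34 lower in hrde-1 to WT. With a ratio of 4, higher and lower calls were 3 and 6 in set-32 to WT, 3 and 5 in the triple mutant to the double mutant, 0 and 17 in the triple mutant to set-32, 0 and 13 in the double mutant to WT, 1 and 24 in the triple mutant to WT, and 16 and 11 in hrde-1 to WT.

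Some alternatives were chosen after seeing the data. Without the 10 members of highest mean, the hrde-1 to WT summed ratio was 1.32. More than 2 kb from the targets, the summed ratio was 0.715 in the double mutant to WT, 0.528 in the triple mutant to WT and 1.03 in hrde-1 to WT, and there 9 members were higher in set-32 to WT, 4 higher and 13 lower in the triple mutant to the double mutant, 40 lower in the triple mutant to set-32 and 26 higher in hrde-1 to WT. Another 9 summed ratios stayed within the counting interval of the main value, and 17 counts near the main count. A further 29 median ratios stayed within an interval taken from the ranks of the members' ratios. That interval treats members as separate observations, which adjacent windows are not. With many ratios at 1 it was narrow, 0.996 to 1 in set-32 to WT, so these 29 say little about robustness. The 58 ratios of named windows kept their direction and their call after rescaling, though their sizes moved with the factor. They were chosen as the largest and smallest called ratios and the factors ran from 1.004 to 1.81, so this outcome followed from the choice. Depth limits the triple mutant most, where a call at 20 RPKM rests on 6.48 reads.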

Other observations

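After rescaling, the libraries were ordered at the 326 members whose mean was 5 RPKM or more. The highest value belonged to hrde-1 at 118 members (36.2%), to set-32 at 107 (32.8%) and to the triple mutant at 61 (18.7%). It belonged to WT at 35 (10.7%) and to the double mutant at 5 (1.53%). Of kept windows with that mean, the shares were 18.2%, 19.6%, 27%, 17.1% and 18.1% in the same order. The mean includes every library, so a window can pass through the same high value that is then ranked. Ranks across the library sets also rest on the rescaling. The lowest value belonged to the double mutant at 124 members (38.0%), against 16.7% of those kept windows. At I from 11061001 to 11067000, a 6 kb run of members 6 kb from a target that was chosen after its values were seen, the level was 32.2 RPKM in WT, 21.8 in set-32, 21 in the double mutant, 14.5 in the triple mutant, with 80.6 in hrde-1, 2.5 times (2.10 to 2.99) the WT level.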
